A study of Mus musculus with 103 samples.

Results

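The 2 arrays titled mouse liver gave far brighter signals for many genes of neurons and myelin than the other tissue arrays did, and most astrocyte genes were called higher against the mean of the other tissue labels, while hepatocyte genes lay at the low end of the range. They were 2 of 103 arrays in a study that tested a labelling protocol for very small amounts of RNA. They were chosen by their title alone, and are called the arrays labelled liver here. The comparison used 16 arrays of a commercial mouse total RNA tissue panel, carrying 8 tissue labels: liver, and the 7 others brain, embryo, heart, kidney, lung, ovary and spleen. Each label had 1 array made from 1 ug of total RNA as biotinylated cRNA with the manufacturer's one-cycle kit, and 1 array made from 500 pg as biotinylated cDNA with the BIIB protocol developed at Biogen Idec. Strain, sex, age and the number of animals behind each RNA are not given in the sources used here, and no treatment is named. No label says that the arrays of a tissue came from separate preparations, and the p-values below therefore reflect no more than how these arrays vary among themselves, a spread that may be technical.

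Values are MAS5 signals, a brightness on a linear scale that the authors had scaled to 1 common trimmed mean of 2501 on every array. Differences are on the log2 scale after adding 125 to each signal, which understates the change of dim genes. Each difference is the arrays labelled liver minus the mean of the 7 other labels, with protocol as a covariate, followed by its standard error. A gene was called when the limma test gave a Benjamini-Hochberg adjusted p under 0.05 and the change was at least 2-fold. Among 15180 probe sets with a mean signal of 500 or more, 2318 (15.3%) were called higher and 2944 (19.4%) lower on the arrays labelled liver. These shares of tested probe sets are the background for counts against the mean of the 7 labels. Against single labels the shares higher and lower were 13.5% and 17% for embryo and 24.6% and 16.2% for brain. They were 15.8% and 15.6% for kidney and 13.5% and 17.6% for lung. On both arrays labelled liver, 12.5% of tested probe sets lay above all 7 other arrays of the protocol and 7.58% below. List counts are out of all measured genes, also those below the filter. A model without the 7 separate labels called 970 higher and 289 lower. Each gene of the lists was represented by its brightest probe set. Genes outside the lists were ranked by their called probe set with the largest difference.

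The label was first set beside genes of nervous tissue and of liver. Snap25, Mbp and Mobp were picked with earlier results of these data known, and had the largest rises among genes above all other arrays. Their values describe the arrays and do not test the label. Snap25, a core protein of synaptic vesicle fusion, gave a signal of 59501 on the one-cycle array labelled liver, against a lowest of 16.8, a median of 143.4 and a highest of 619 on the 7 other one-cycle arrays. On the BIIB array labelled liver it gave 168374, against 6.2, 61.2 and 1608 for the lowest, median and highest of the 7 others. Both arrays labelled liver stood above every other array, and the difference was 8.61 ± 0.46 (adjusted p = 1.6e-07). Mbp, a structural protein of compact myelin, read 121927 and 294770 on the one-cycle and BIIB arrays labelled liver, against highest values of 1540 (embryo) and 1623 (lung), a difference of 8.38 ± 0.38. Of its 7 other probe sets 5 were called higher and 2 were not called. Mobp, a myelin protein of oligodendrocytes, read 44470 and 131412 on the arrays labelled liver, against highest values of 254 (heart) and 1131 (ovary), a difference of 8.20 ± 0.49. Alb, the main plasma protein made by hepatocytes, showed the reverse pattern. It read 65.2 and 378.5 on the arrays labelled liver, against 389092 and 1383443 on the arrays labelled brain, 241324 and 334231 on those labelled embryo, and 298 to 17549 on the other 10 arrays. Cyp2e1, a hepatic cytochrome, read 61.7 and 5.5 on the arrays labelled liver, below all others, against 208512 and 202761 on the arrays labelled brain.

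**Figure D1:**
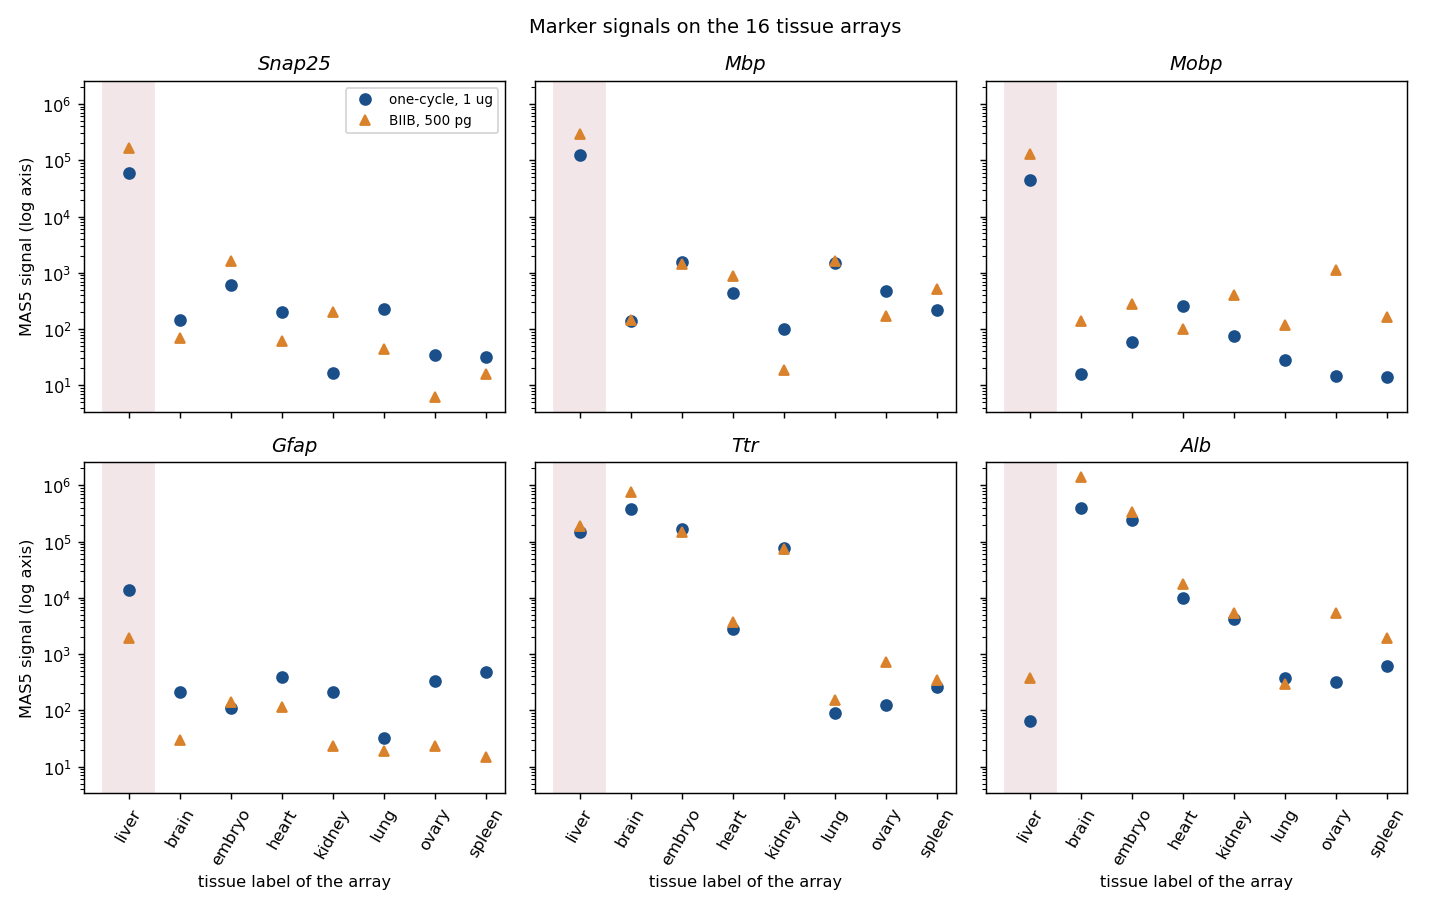
MAS5 signal (log axis) of Snap25, Mbp, Mobp, Gfap, Ttr and Alb on the 16 tissue arrays, with the tissue label along the horizontal axis, circles for one-cycle arrays and triangles for BIIB arrays, 1 array per point. The shaded arrays labelled liver lie above all others for Snap25, Mbp, Mobp and Gfap, below the arrays labelled brain for Ttr, and far below them for Alb.

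Over the whole hepatocyte list, 24 genes had a probe set, and 22 fell and none rose on the arrays labelled liver against the other 7 labels. Against the arrays labelled brain all 24 were called lower, against those labelled embryo 21, kidney 14 and lung 4. The shares of all tested probe sets called lower were 16.2%, 17%, 15.6% and 17.6%, so the count against lung lay near its background. On both arrays labelled liver 1 of the 24 lay below all others, where 7.58% of tested probe sets did. The summed signal of the list was 3481 and 3690 on the one-cycle and BIIB arrays labelled liver, lower than on every other array, against 4576 to 4514615 and 5849 to 6487017 on the others. The highest sums belonged to the arrays labelled brain. The data therefore go against the label, and the name "arrays labelled liver" is kept throughout. Whether the RNAs, the arrays or the labels of liver and brain were exchanged was not tested.

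The same profile was present on both arrays. Across the 15180 probe sets, the deviations of the BIIB array labelled liver from its protocol's mean had a correlation of 0.87 with those of the one-cycle array of that label, and of -0.34 with those of the one-cycle array labelled brain. These are correlations across genes, which are not independent replicates. The median signal of the 16 arrays ran from 432 to 974. The ratio of 3′ to 5′ signal for the Actb control was 22.0 on the BIIB array labelled liver, against 8.17 to 25.2 on the other BIIB arrays. It was 1.5 on the one-cycle array labelled liver, against 1.23 to 1.80 on the other one-cycle arrays. Both arrays labelled liver thus lay within the range of their protocol. On 4 universal reference RNA arrays of each protocol, the median probe set varied by an SD of 0.14 (one-cycle) and 0.39 (BIIB) on the log2 scale.

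Nervous tissue is built from neurons, which signal through regulated vesicle release at synapses, and from glia: oligodendrocytes wrap axons in myelin, astrocytes clear transmitter and supply fuel, and microglia are the resident macrophages. The choroid plexus is an epithelium in the ventricles that secretes cerebrospinal fluid and makes transthyretin, and ependymal cells with motile cilia line those ventricles. In RNA from a whole tissue, fewer cells of a type and less RNA per cell cannot be told apart.

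Promoter motifs known from neuronal genes include the cyclic AMP response element and the element bound by REST, which represses neuronal genes in other cells, and SOX factors act in oligodendrocytes. Promoters of 3 called genes that hold the searched letters are shown. They come from RefSeq, assembly GRCm38.p6, run from 250 bases before to 50 after the gene's start, and read 5′ to 3′ on the gene's strand. The synapsin 1 gene (Syn1) lies at chrX:20920869-20921168 on the minus strand. Capitals mark TTCAGCACC, the left arm of the REST element, and TGACGTCA, the cyclic AMP response element. For chromogranin B (Chgb, chr2:132781392-132781691, plus strand) capitals mark TGACGTCA. For Mobp (chr9:120149492-120149791, plus strand) they mark 6 copies of the SOX core ACAAAG, all on the opposite strand.
Syn1: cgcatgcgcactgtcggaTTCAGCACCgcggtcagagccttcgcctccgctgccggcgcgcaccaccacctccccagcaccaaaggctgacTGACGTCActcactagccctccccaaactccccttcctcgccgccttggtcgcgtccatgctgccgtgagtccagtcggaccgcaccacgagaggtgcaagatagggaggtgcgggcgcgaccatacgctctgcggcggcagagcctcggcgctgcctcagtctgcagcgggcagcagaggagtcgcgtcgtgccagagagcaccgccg
Chgb: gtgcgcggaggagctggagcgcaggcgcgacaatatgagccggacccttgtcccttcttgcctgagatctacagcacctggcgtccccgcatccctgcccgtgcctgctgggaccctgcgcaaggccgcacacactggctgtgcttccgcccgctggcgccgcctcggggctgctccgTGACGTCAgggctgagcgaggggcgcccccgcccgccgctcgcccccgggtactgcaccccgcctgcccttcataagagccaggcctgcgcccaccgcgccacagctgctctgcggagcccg
Mobp: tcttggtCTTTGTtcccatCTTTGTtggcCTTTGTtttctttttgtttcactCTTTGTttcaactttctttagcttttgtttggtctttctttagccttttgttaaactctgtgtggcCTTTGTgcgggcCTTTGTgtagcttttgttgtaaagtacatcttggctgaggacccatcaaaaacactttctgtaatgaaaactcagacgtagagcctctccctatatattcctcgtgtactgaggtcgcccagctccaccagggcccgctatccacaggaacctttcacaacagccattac

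Both strands were searched, and a match is a description of letters only. TGACGTCA was found in 6 of 82 (7.32%) promoters matched to the 105 neuronal genes called higher, against 507 of all 27025 promoters (1.88%). TTCAGCACC was found in 2 of the 82 (2.44%), against 97 of all (0.359%). ACAAAG was found in 5 of 33 (15.2%) promoters matched to the 42 glial genes called higher, against 18.7% of all promoters. A TATAAA run was found in 9.76% of the neuronal promoters and 9.09% of the glial ones, against 14.2% of all. None of the 5 matched promoters of choroid plexus genes called higher held TGACGTCA, TTCAGCACC or ACAAAG.

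The neuronal lists together held 160 genes, of which 123 had a probe set with a single gene symbol and 106 passed the filter on low signal. Of the 123, 105 rose on the arrays labelled liver and none fell. A gene bright only on the arrays labelled liver could pass the filter through them. That 105 of the 106 tested genes rose is therefore partly set by the filter, and describes the lists without testing them. Without the filter 114 rose, against 2795 of 22626 probe sets (12.4%) called higher without the filter. On both arrays 111 of the 123 lay above all 7 other arrays of the same protocol, which 1903 probe sets (12.5%) did among those that passed the filter. The median difference of the 123 genes was 4.49, against -0.12 over all 12393 genes. Their summed signal was 2149888 and 2194517 on the one-cycle and BIIB arrays labelled liver, against 45580 to 242378 and 42128 to 241758 on the others. The arrays labelled embryo held the highest of the other sums in both protocols.

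**Figure D2:**
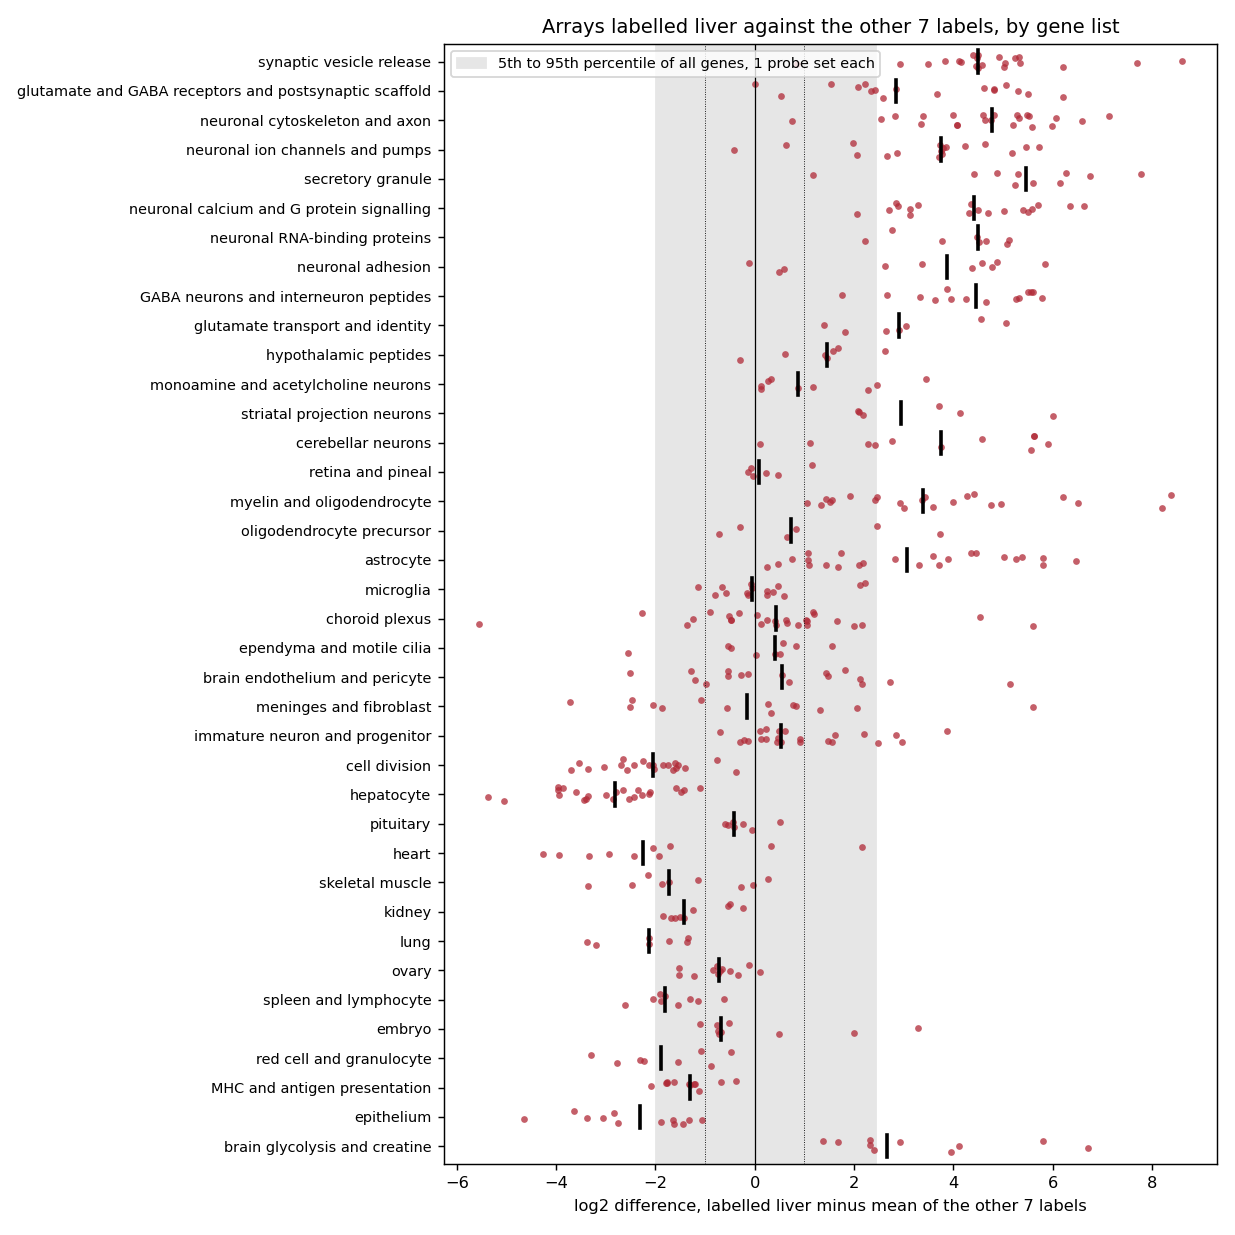
Log2 difference of each measured gene, arrays labelled liver minus the mean of the other 7 labels, by gene list, with 1 point per gene, bars at each list's median and no filter on low signal. Grey covers the 5th to 95th percentile of all genes. Synaptic, cytoskeletal, granule, myelin, astrocyte and brain glycolysis lists lie mostly to its right. The choroid plexus, ependymal and microglial lists have medians around 0, with members on both sides. The hepatocyte, epithelial and cell division lists lie mostly below 0.

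Genes of synaptic vesicle release were among those with the largest differences. Of 21 measured genes 19 rose, and the other 2, Rph3a and Bsn, were too dim to be tested. Cplx1, complexin, which clamps the fusion machinery, read 74010 and 200201 on the arrays labelled liver, against highest values of 3242 and 2865 on the arrays labelled embryo. Its difference was 7.70 ± 0.66. Dnm1, the dynamin that pinches off recycled vesicles, differed by 6.20, and Syt1, the calcium sensor of release, by 4.40. Syn1, which tethers vesicles, read 32950 and 5000, against highest values of 1436 and 313 on the arrays labelled embryo, a difference of 5.34 ± 0.34. The smallest called difference was that of Sncb, beta-synuclein, at 2.92 ± 0.42. Its signal was 11334 on the one-cycle array labelled liver and 775 on the BIIB array of that label, against highest values of 1205 (kidney) and 420 (embryo).

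Receptors and the postsynaptic scaffold rose in 12 of 17 measured genes, and the other 5 did not pass the filter. Gria2, the AMPA receptor subunit that limits calcium entry, read 12166 and 26432 on the arrays labelled liver, against 85.6, 122 and 389 for the lowest, median and highest of the other one-cycle arrays and 16.2, 46.7 and 286 for those of the other BIIB arrays. The groups did not overlap, and the difference was 6.21 ± 0.38. Camk2b, a calcium-dependent kinase of the postsynaptic density, differed by 5.51. Homer1, a scaffold protein, had the smallest called difference, 1.54 ± 0.42, and read 1514 and 3432 on the arrays labelled liver against 1622 and 2954 on the arrays labelled heart.

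The neuronal cytoskeleton and axon list rose in 21 of 22 genes. Stmn3, a stathmin that regulates microtubules, read 64996 and 42344 on the arrays labelled liver, against 5670 and 4144 on the arrays labelled embryo, with medians of 146 and 104 on the other one-cycle and BIIB arrays. Its difference was 7.13 ± 0.31. Nefl, the light neurofilament chain, read 25968 and 26608, against highest values of 4320 and 2450 on the arrays labelled embryo, a difference of 6.59 ± 0.31. For both genes the arrays labelled embryo were the brightest of the other labels. Map2, a dendritic microtubule protein, was bright in 1 protocol only, with 5998 on the one-cycle array labelled liver and 260 on the BIIB array of that label, against highest values of 840 and 158. Dpysl2, a collapsin response mediator protein, was not called, with 0.75 ± 0.42.

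Ion channels and pumps rose in 11 of 17 measured genes, with 6 below the filter. Atp2b2, a plasma membrane calcium pump, read 18872 and 28256 on the arrays labelled liver, against highest values of 1027 (ovary) and 1886 (embryo), a difference of 5.73 ± 0.27. The sodium channels Scn8a and Scn1a, which carry action potentials, differed by 5.47 and 5.18. Atp1b1, a sodium pump subunit also abundant in kidney tubules, differed by 2.66 but read 43694 and 137653 on the arrays labelled liver against 53968 and 160255 on the arrays labelled kidney.

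Of 10 secretory granule genes 9 rose, and Pcsk1 did not pass the filter. Chgb, a granin of dense-core vesicles, read 34704 and 110291 on the arrays labelled liver, against 11.2, 29.1 and 1931 for the lowest, median and highest of the other one-cycle arrays and 8.2, 105 and 3316 for those of the BIIB arrays. The difference was 7.78 ± 0.41, and no other array came near the arrays labelled liver. Scg3, Scg2 and Scg5, further granins and a chaperone of prohormone convertase, differed by 6.76, 6.27 and 6.14. Cpe, an enzyme that trims prohormones, was also bright on the arrays labelled ovary, with 73507 and 109789 on the arrays labelled liver against 37341 and 45404 there.

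All 18 measured genes of neuronal calcium and G protein signalling rose, as did all 8 of neuronal RNA-binding proteins. Pcp4, a calmodulin-binding protein, read 91536 and 61072 on the arrays labelled liver, against highest values of 2963 and 5193 on the arrays labelled ovary, a difference of 6.63 ± 0.40. Hpca, hippocalcin, a calcium sensor, differed by 6.35, and Camk4, a nuclear calcium-dependent kinase, by 2.05. Elavl2, an RNA-stabilising protein of neurons, differed by 5.12 and Ptbp2, a splicing regulator, by 2.21. Rbfox3, the antigen known as NeuN, read 1884 and 5428 on the arrays labelled liver against highest values of 288 (heart) and 303 (embryo), a difference of 3.78 ± 0.44. Neuronal adhesion molecules rose in 7 of 10 genes, from Cntn1, a contactin, at 5.84 ± 0.31 to L1cam at 2.63, and the other 3 were below the filter.

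Transcripts that mark particular neurons came from several brain regions. The list of GABA neurons and their peptides rose in 13 of 14 genes, and Pdyn did not pass the filter. Gad1, which makes GABA, read 20825 and 7709 on the arrays labelled liver, against highest values of 580 (embryo) and 357 (spleen), a difference of 5.79 ± 0.42. Pvalb, a calcium buffer of fast-spiking interneurons, differed by 5.60, and Sst, the peptide somatostatin, by 4.66. Calb1, a calcium buffer shared by neurons and the distal kidney tubule, read 36583 and 39880 on the arrays labelled liver against 33252 and 24596 on the arrays labelled kidney. For glutamate neurons, 3 of 7 genes rose: Neurod1, a transcription factor of granule neurons, by 5.05, Slc17a6, a vesicular glutamate transporter, by 4.56, and Lhx2 by 2.65. The cortical genes Tbr1, Fezf2, Neurod2 and Neurod6 lay above all others on both arrays but were too dim for the filter.

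Cerebellar genes rose in 7 of 11, with 4 below the filter. Pcp2, a protein of Purkinje cells, read 22926 and 8815 on the arrays labelled liver, against 49.5, 94.9 and 556 for the lowest, median and highest of the other one-cycle arrays and 35.8, 64.7 and 286 for those of the BIIB arrays. Its difference was 5.91 ± 0.44, and both arrays stood apart from the rest. Gabra6, the GABA receptor subunit of cerebellar granule cells, differed by 5.63 ± 0.34, and Cbln1, a synapse organiser, by 5.62 ± 0.32. Striatal projection neuron genes rose in 4 of 6, led by Arpp21, a phosphoprotein of the cyclic AMP pathway, at 6.01 ± 0.27. Ppp1r1b, the dopamine-regulated phosphatase inhibitor DARPP-32, differed by 3.71. None of 6 retina and pineal genes or 7 pituitary genes passed the filter on low signal.

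Hypothalamic and monoamine genes gave a weaker picture. Of 7 hypothalamic peptides 2 rose, and 5 did not pass the filter. Avp, vasopressin, read 3832 on the one-cycle array labelled liver and 302 on the BIIB array of that label, against highest values of 473 (embryo) and 539 (spleen). Its difference was 1.58 ± 0.57 (adjusted p = 0.043), and on the BIIB arrays alone it was -0.13. The call was lost under 18 of 29 alternatives. Oxt, oxytocin, read 2461 and 778, against highest values of 1295 (heart) and 781 (brain), a difference of 1.42 ± 0.39. Of 9 monoamine and acetylcholine genes 2 rose, Ache, which breaks down acetylcholine, by 3.44 and Ddc, which makes dopamine and serotonin from their precursors, by 1.18. Ddc is also a kidney enzyme, and was brighter on the arrays labelled kidney. Th, the rate-limiting enzyme of catecholamine synthesis, read 1113 and 1641 on the arrays labelled liver against highest values of 699 and 367 on the arrays labelled heart, and was too dim for the filter.

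The glial lists together held 76 genes, 66 of them with a probe set, and 42 of the 66 rose while 1 fell. On both arrays 29 of the 66 lay above all others. Their median difference was 2.10, and their summed signal was 1224235 and 1616321 on the arrays labelled liver, against 308750 to 736019 (one-cycle) and 331297 to 1112022 (BIIB) on the others. The model without separate labels called 22 of them higher and none lower. Unlike for the neuronal sum, the arrays labelled brain were here the highest of the others.

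Myelin and oligodendrocyte genes rose in 18 of 22. On both arrays 14 of the 22 lay above all others, and against the arrays labelled kidney 11 were higher and 1 lower. Some called members were brighter elsewhere. Car2 read 38646 and 35265 on the arrays labelled liver against 132756 and 148230 on the arrays labelled spleen. Aspa read 3565 and 2852 against 17770 and 11445 on the arrays labelled kidney. Besides Mbp and Mobp, Olig1, a transcription factor of the oligodendrocyte lineage, read 22043 and 20890 on the arrays labelled liver, against highest values of 737 and 1518 on the arrays labelled embryo, a difference of 6.50 ± 0.31. Omg and Mog, proteins of the myelin surface, differed by 6.20 and 4.95, and Mag, an adhesion molecule of the innermost myelin layer, by 4.42. Cnp, an enzyme of non-compact myelin, read 106228 and 67925, against highest values of 26479 and 9580 on the arrays labelled spleen, a difference of 4.27 ± 0.34. Mal, a myelin proteolipid also made by kidney tubules, read 24990 and 50769 against 15235 and 23878 on the arrays labelled kidney. Sox10, Olig2 and Cldn11 lay above all others but were too dim for the filter, and Cryab was not called at 1.06 ± 0.45. Among 6 genes of oligodendrocyte precursors 1 rose: Ptprz1, a receptor phosphatase, by 3.73 ± 0.32. Pdgfra, the growth factor receptor that defines these precursors and is also widespread in fibroblasts, read 2954 and 1915 on the arrays labelled liver, against medians of 2726 and 1710 on the others, and was not called (-0.30 ± 0.28).

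Astrocyte genes rose in 21 of 24 and none fell. On both arrays 13 of the 24 lay above all others, and the summed signal was 645593 and 761780 on the arrays labelled liver, against highest values of 517614 and 924778 on the arrays labelled brain. Gpr37l1, an orphan receptor of astrocytes, read 19995 and 11580 on the arrays labelled liver, against highest values of 238 (kidney) and 65.4 (brain), a difference of 6.47 ± 0.28. Slc1a3 and Slc1a2, the glutamate transporters, differed by 5.27 and 3.59. Gfap, the intermediate filament of astrocytes, read 13605 and 1948, against highest values of 472 (spleen) and 142 (embryo), a difference of 4.45 ± 0.44. Aqp4, the water channel of astrocyte endfeet, read 9802 and 9164 on the arrays labelled liver, against 5117 and 4611 on the arrays labelled kidney, its next highest. Some members were brighter under another label. Gja1 read 24282 and 20431 on the arrays labelled liver against 62540 and 42742 on the arrays labelled ovary. Fabp7 read 4222 and 6305 against 8420 and 9845 on the arrays labelled embryo. Apoe and Aldh1l1, which hepatocytes also make, were brighter on the arrays labelled brain. Apoe, an apolipoprotein of astrocytes and liver, read 98782 and 106692 on the arrays labelled liver against 262069 and 475322 on the arrays labelled brain. It was called higher against the 7 labels (1.44 ± 0.26) and lower against the arrays labelled brain (-1.78). Aldh1l1, a folate enzyme of astrocytes and liver, was not called against the 7 labels (0.46 ± 0.44) and was lower against the arrays labelled brain (-3.13). It read 5207 and 4711 on the arrays labelled liver and 42990 and 45622 on those labelled brain. The arrays labelled kidney were also bright, with 32028 and 35447.

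Microglial genes were mostly not called against the mean of the other labels, many of which contain macrophages. Of 15 measured genes 2 rose and 1 fell. Cx3cr1, the fractalkine receptor, read 3799 and 2409 on the arrays labelled liver, against highest values of 1629 and 1041 on the arrays labelled heart, a difference of 2.12 ± 0.36. P2ry12, a purine receptor of resting microglia, differed by 2.22 ± 0.42 and read 3422 and 610, against highest values of 1428 (spleen) and 655 (heart). Olfml3, which is also made by other cells, fell by 1.14 ± 0.24 on the log2 scale. The general macrophage genes C1qa and Csf1r were not called, with 0.24 and -0.07.

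The choroid plexus and ependymal lists gave no common direction. Of 53 listed genes 36 had a probe set and 23 passed the filter, and of the 36, 7 rose and 4 fell. The background of 15.3% higher and 19.4% lower is of probe sets tested, and so compares with the 23 genes that passed the filter. Of these 23 the share that rose lay above the background and the share that fell near it. The counts are small and changed with the settings, so they are not read as a result about the lists. Without the BIIB array labelled liver 2 rose, and without the one-cycle array of that label 3 rose. Both arrays lay above all others for 2 of the 36 and below all others for 2, where 1150 probe sets (7.58%) of those that passed the filter lay below. The median difference was 0.42. The summed signal of the 36 was 193829 and 241515 on the arrays labelled liver, against 55088 to 547813 and 45925 to 947697 on the others, so the arrays labelled liver lay inside that range.

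**Figure D3:**
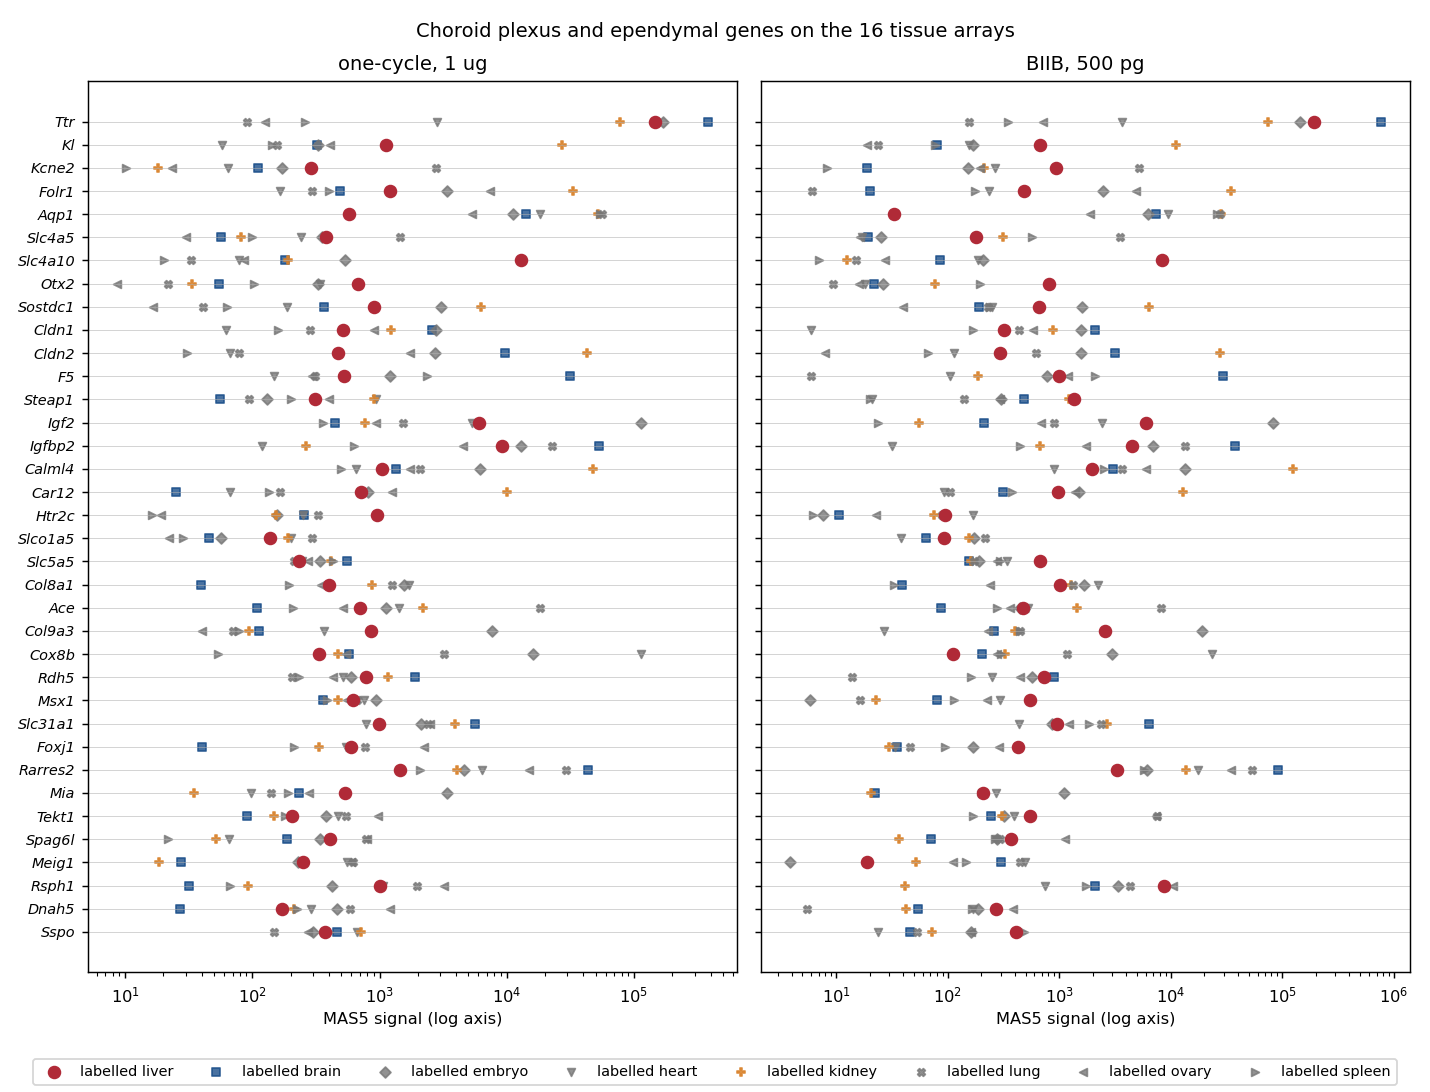
MAS5 signal (log axis) of the 36 measured choroid plexus and ependymal genes on the one-cycle (left) and BIIB (right) arrays, 1 point per array, with the arrays labelled liver as large red circles. Slc4a10 and Otx2 lie above all other arrays in both panels, Aqp1 and Rarres2 below all others, and Ttr below the arrays labelled brain.

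Slc4a10, a sodium bicarbonate transporter of choroid plexus epithelium that neurons also express, was the choroid gene with the largest difference. It read 12891 and 8380 on the arrays labelled liver, against 20.3, 86.8 and 536 for the lowest, median and highest of the other one-cycle arrays and 7.0, 27.3 and 209 for those of the BIIB arrays. The groups did not overlap, and the difference was 5.60 ± 0.30 (adjusted p = 1.8e-07). Ttr, transthyretin, the thyroid hormone carrier secreted by choroid plexus and by liver, read 145940 and 191504 on the arrays labelled liver. The arrays labelled brain read 379141 and 761531, those labelled embryo 168140 and 145574, those labelled kidney 78369 and 73795, and the other 8 arrays 90.8 to 3692. It was called higher against the mean of the 7 labels (4.53 ± 0.33) and lower against the arrays labelled brain (-1.68 ± 0.43, adjusted p = 0.0078). It was not called against the arrays labelled embryo (0.10 ± 0.43) or kidney (1.14 ± 0.43, adjusted p = 0.064). Otx2, a homeobox factor of choroid plexus, read 675 and 819, against highest values of 344 (heart) and 197 (spleen), and was too dim for the filter.

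The other 5 choroid genes that rose did so against a mean that included at least 1 brighter label. Igf2, a growth factor, read 6056 and 6011 on the arrays labelled liver, against 113700 and 82454 on the arrays labelled embryo, with a difference of 2.00 ± 0.37 from the 7 labels. Kl, the hormone co-receptor klotho, read 1129 and 668, against 27218 and 11113 on the arrays labelled kidney, a difference of 1.06 ± 0.36. Kcne2, a potassium channel subunit, read 289 and 927, against 2793 and 5190 on the arrays labelled lung, a difference of 1.03 ± 0.37. Col9a3, a collagen chain, differed by 1.66 ± 0.49 and Igfbp2, a growth factor binding protein, by 1.19 ± 0.35. Of these 5, Igf2, Kl, Kcne2 and Col9a3 were also called higher against the arrays labelled brain, and Igfbp2 was called lower there. Calls for Kl and Kcne2 rested on the settings, being lost under 19 of 30 and 21 of 28 alternatives.

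Of the choroid plexus genes 3 fell, and others known from its epithelium were not called. Aqp1, the water channel of its apical face, read 571 and 32.9 on the arrays labelled liver, below all others, which ran from 5326 to 56511 on one-cycle arrays and from 1906 to 28339 on BIIB arrays. The difference was -5.55 ± 0.27 (adjusted p = 7.7e-08). Folr1, a folate receptor, read 1218 and 482 on the arrays labelled liver against medians of 485 and 234 on the others, with 33343 and 34866 on the arrays labelled kidney, and was not called (-0.51 ± 0.39). Cldn2, a tight junction protein, read 469 and 293 against 42777 and 27591 on the arrays labelled kidney and was not called (-1.24 ± 0.71). Calml4 and Cox8b fell by 1.36 ± 0.30 and 2.28 ± 0.51 on the log2 scale, with their brightest arrays labelled kidney and heart. Of 9 measured ependymal genes none rose and 1 fell: Rarres2, the chemoattractant chemerin, which is also made by liver and fat, read 1462 and 3299, below all others. Foxj1, the master regulator of motile cilia, read 594 and 423, against highest values of 2252 and 291 on the arrays labelled ovary, and did not pass the filter. Rsph1, a component of the ciliary axoneme, read 1007 and 8678, against highest values of 3228 and 10440 on the arrays labelled ovary, and was not called (1.55 ± 0.70).

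Set against single labels, the 36 choroid and ependymal genes split both ways. Only the 23 that passed the filter could be called, and the backgrounds are shares of probe sets tested. Against the arrays labelled kidney 6 rose and 11 fell, where the background was 15.8% higher and 15.6% lower. Against the arrays labelled lung 10 rose and 7 fell, with a background of 13.5% higher and 17.6% lower. The neuronal genes did not split: 104 of the 123 were called higher and none lower against each of these 2 labels. The contrasts share the arrays labelled liver, so they are not independent of each other.

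The 2 protocols gave the same picture. Within the one-cycle arrays the median difference was 4.47 for the neuronal, 1.95 for the glial and 0.16 for the choroid and ependymal genes. Within the BIIB arrays these medians were 4.29, 2.11 and 0.39.

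**Figure D4:**
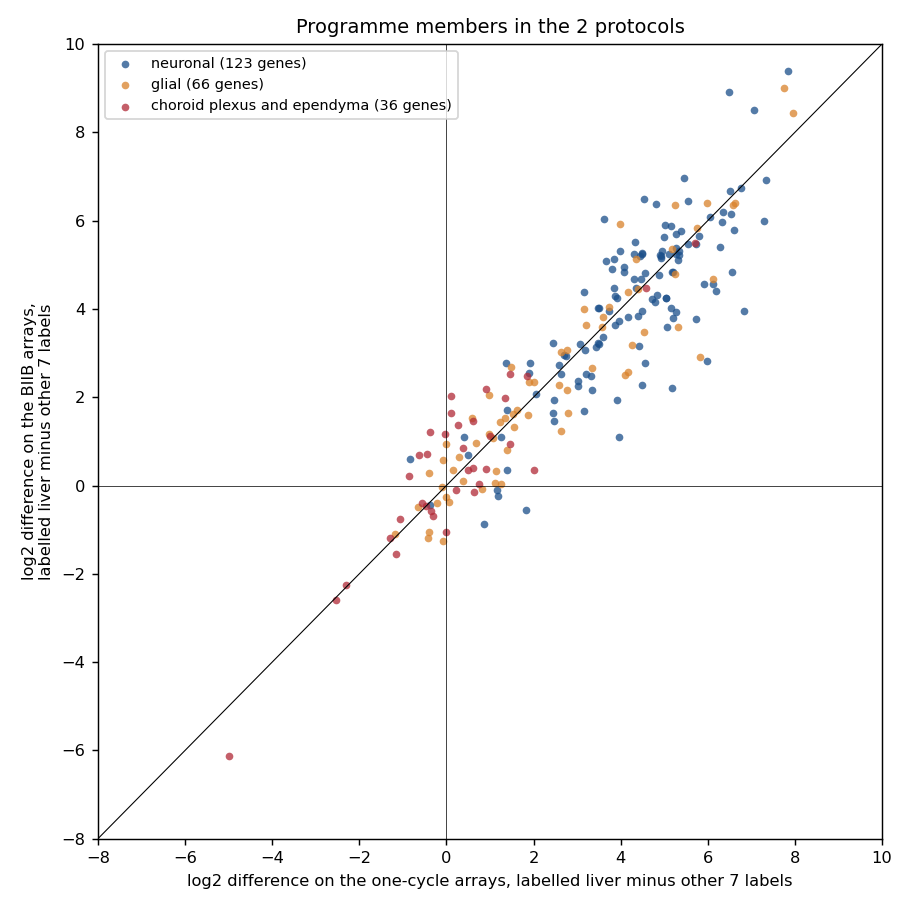
Log2 difference, arrays labelled liver minus the mean of the other 7 labels, on the one-cycle arrays (horizontal axis) and on the BIIB arrays (vertical axis), with 1 point per measured gene, coloured by programme, and the diagonal of equal values. Neuronal and most glial genes lie at the upper right in both protocols. Choroid and ependymal genes lie on both sides of 0, with Slc4a10 and Ttr far above it and Aqp1 far below.

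Genes of brain endothelium and pericytes moved in both directions. Transporters of the blood-brain barrier rose: Slco1c1, which carries thyroid hormone, read 9229 and 11717 on the arrays labelled liver, against highest values of 373 and 934 on the arrays labelled embryo, a difference of 5.14 ± 0.39. Slco1a4, Slc2a1, the glucose transporter, and Abcb1a, an efflux pump, differed by 2.72, 2.16 and 1.81. Other endothelial genes did not follow them. Pecam1, an endothelial adhesion molecule, read 1063 and 36.4, below all others, a difference of -2.51 ± 0.36, and Cdh5, the cadherin of endothelial junctions, fell by 1.28 ± 0.34 on the log2 scale. Cldn5, a tight junction protein, was not called (0.55 ± 0.37). In all, 7 of 17 endothelial and pericyte genes rose and 3 fell. On both arrays labelled liver 1 of the 17 lay above all others. Abcb1a read 1892 on the one-cycle array labelled liver, against 2162 on the one-cycle array labelled ovary and 1932 on that labelled lung. Among 14 genes of meninges and fibroblasts 2 rose and 6 fell. Ptgds, the prostaglandin synthase of meninges and oligodendrocytes, read 144619 and 232282 on the arrays labelled liver against 63908 and 102892 on the arrays labelled heart, a difference of 5.60 ± 0.24. Col3a1, a fibrillar collagen, read 1597 and 2153, below all others, against highest values of 171983 and 99622 on the arrays labelled embryo, a difference of -3.73 ± 0.28.

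The arrays labelled embryo were the nearest comparison for many neuronal genes. They were the brightest of the 7 other labels for 60 of the 123 neuronal genes in the one-cycle protocol and for 58 in BIIB. Against them 94 of the 123 were still called higher and none lower, where 2056 probe sets (13.5%) were called higher and 2575 (17%) lower. Snap25 differed from the arrays labelled embryo by 6.46 ± 0.61. By list, 19 of 21 vesicle release genes, 11 of 17 receptor and scaffold genes, 9 of 10 granule genes and 16 of 22 cytoskeletal genes were called higher. Without the BIIB array labelled liver or labelled embryo, 3070 and 3049 probe sets were called in either direction, against 4631. Gap43, a growth cone protein, read 17077 and 32410 on the arrays labelled liver against 4382 and 13846 on the arrays labelled embryo, and was not called in that contrast (1.58 ± 0.58, adjusted p = 0.057). Tubb3, neuronal tubulin, read 8482 and 22424 against 4470 and 11769 and was not called (0.91 ± 0.69). Ncam1, a neural adhesion molecule, read 5749 and 12584 against 6626 and 14191 and was not called (-0.19 ± 0.60). Glial genes were called higher in 39 of 66 and lower in 2, and choroid and ependymal genes higher in 2 of 36 and lower in 9.

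**Figure D5:**
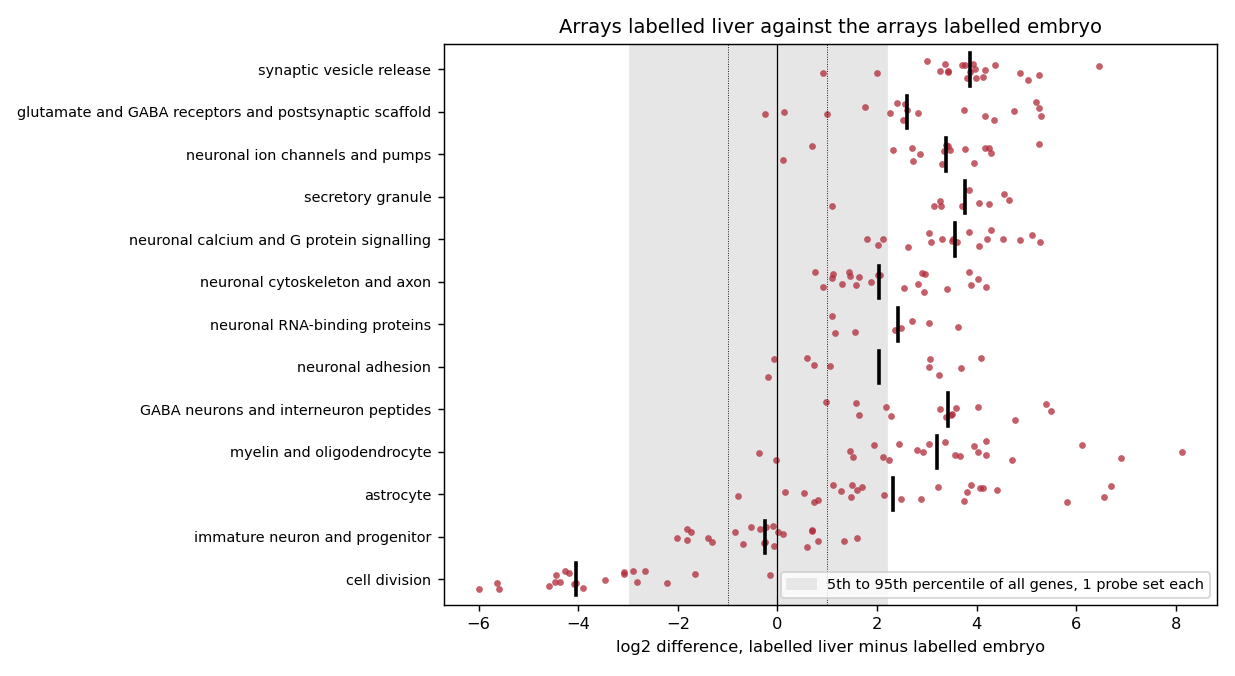
Log2 difference of each measured gene, arrays labelled liver minus arrays labelled embryo, for 9 neuronal lists, the myelin and astrocyte lists, and the immature neuron and cell division lists, with 1 point per gene, bars at list medians and no filter on low signal. Grey covers the 5th to 95th percentile of all genes. In the neuronal, myelin and astrocyte lists drawn, medians run from 2.04 for the cytoskeleton to 3.87 for vesicle release, against -0.25 for immature neurons and -4.05 for cell division, and the lists of oligodendrocyte precursors and microglia, not drawn, had medians of -1.15 and 0.51.

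Genes of immature neurons and of dividing cells did not share the direction of the synaptic lists in this contrast. Of 23 immature neuron and progenitor genes 10 passed the filter. Against the arrays labelled embryo none rose and 3 fell, with a background of 13.5% higher and 17% lower. The 3 falls are too few to be read as a direction of the list. Against the mean of the 7 labels 5 rose and none fell. Dcx, a microtubule protein of migrating neurons, read 468 and 2036 on the arrays labelled liver against 2694 and 7284 on the arrays labelled embryo. Nnat, neuronatin, read 31740 and 7304 against 33207 and 9867, and was not called in that contrast (-0.25 ± 0.66). Cell division genes fell in 20 of 21 against the arrays labelled embryo and in 19 of 21 against the 7 labels. Against other single labels fewer fell: 3 against the arrays labelled brain, 4 against kidney and 10 against lung. The backgrounds there were 16.2%, 15.6% and 17.6% lower. The counts against brain and kidney lay near them and are not read as a result about these genes. Their summed signal was highest on the arrays labelled spleen. Mki67, a proliferation marker, read 308 and 224 on the arrays labelled liver, below all others, against 51137 and 137006 on the arrays labelled spleen, a difference of -3.71 ± 0.43 from the 7 labels. Pcna, the replication clamp, was not called against the 7 labels (-0.77).

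All 10 genes of brain glycolysis and creatine metabolism rose. Eno2, the neuronal enolase, read 36463 and 43636 on the arrays labelled liver, against highest values of 1129 (embryo) and 576 (lung), a difference of 6.71 ± 0.42. Aldoc, the aldolase of brain, read 88216 and 98006, against highest values of 7301 (embryo) and 6546 (ovary), a difference of 5.80 ± 0.38. Ckb, brain creatine kinase, differed by 4.12, and Slc2a3, the neuronal glucose transporter, by 2.93.

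Markers of most other organs of the panel fell more often than they rose against the mean of the 7 labels. For an organ of the panel that mean holds the organ's own arrays, so such a fall says little about the arrays labelled liver. Of the 7 lung genes 1 was called lower against the arrays labelled brain and 0 against those labelled kidney. Of the 9 kidney genes 8 were lower against kidney and 0 against brain. Epithelial genes fell in 11 of 12, with Krt8, a simple epithelial keratin, at -4.64 ± 0.70, and lung genes fell in 7 of 7. Heart genes fell in 8 of 10, and 1 rose: Ryr2, a calcium release channel of heart that neurons also express. It read 2497 and 2592 on the arrays labelled liver, against 31976 and 28186 on the arrays labelled heart and medians of 214 and 262 over the 7 other arrays of each protocol, a difference of 2.15 ± 0.31. Kidney genes fell in 6 of 9, spleen and lymphocyte genes in 7 of 9, and none rose in either list. Skeletal muscle genes fell in 6 of 9, red cell and granulocyte genes in 6 of 8, and ovary genes in 1 of 12. Of 9 embryo genes 2 rose, the imprinted genes Peg3 (3.29) and Igf2 (2.00), and 1 fell, Afp, a fetal plasma protein (-1.10). Antigen presentation genes fell in 10 of 12, among them H2-Aa, a class II chain, at -2.10 ± 0.32. Against the arrays labelled embryo 7 of these 12 were higher and none lower, and against the arrays labelled brain all 12 were lower.

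Against the arrays labelled brain alone, 3730 probe sets (24.6%) were called higher and 2462 (16.2%) lower. Of the 123 neuronal genes 104 were called higher and none lower, and of the 66 glial genes 38 were higher and 7 lower. The 7 were Apoe and Aldh1l1 and the macrophage genes Csf1r, C1qa, C1qb, C1qc and Tyrobp, with differences of -1.22 to -3.13. Of the 36 choroid and ependymal genes 9 were higher and 8 lower, and among the lower ones F5, a clotting factor also made by liver, differed by -5.16 and Rarres2 by -4.76. Under quantile normalization the median of all probe sets in this contrast was 0.05 in place of 0.25, with 2979 called higher and 2779 lower.

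Outside the lists, the 15 largest rises among genes above all other arrays in both protocols ran from 6.75 to 5.74. Atp6v1g2, a brain subunit of the proton pump that fills synaptic vesicles, read 43295 and 21293 on the arrays labelled liver, against highest values of 767 and 356 on the arrays labelled embryo, a difference of 6.75 ± 0.27. Slc12a5, the chloride exporter that makes GABA inhibitory, differed by 6.40 ± 0.43, and Gabbr1, a subunit of the metabotropic GABA receptor, by 5.85 ± 0.32. Rasgrf1 and Kalrn, exchange factors for small GTPases in neurons, differed by 6.39 and 6.0, and Napb, an attachment protein of the vesicle fusion cycle, by 5.78. Ndrg4, a protein of brain and heart, read 104004 and 31629, against 30311 and 6538 on the arrays labelled heart, a difference of 6.04 ± 0.35. The others were Tagln3, Nrsn1, Rab6b, Chn1, Dner, 6330403K07Rik, Klc1 and Ttyh1.

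Also outside the lists, the 15 largest falls among genes below all other arrays in both protocols ran from -6.54 to -4.16. Hp, haptoglobin, a plasma protein of hepatocytes, read 17.7 and 103 on the arrays labelled liver, against 645, 12004 and 294352 for the lowest, median and highest of the other one-cycle arrays and 2054, 24317 and 498492 for those of the BIIB arrays. The brightest were the arrays labelled brain, and the difference was -6.54 ± 0.28. Cd36, Fabp4 and Adipoq, genes of fatty acid handling and fat cells, differed by -6.06, -5.80 and -4.21. Car3, a carbonic anhydrase of muscle, fat and liver, differed by -5.85, and Serpina1b, an antitrypsin of hepatocytes, by -4.29. The matrix genes Col5a2, Bgn and Dpt differed by -4.48, -4.25 and -4.16. The value for Bgn is not from its brightest probe set. That one read 1439 and 3689 on the arrays labelled liver, against lowest values of 7215 (kidney) and 14516 (brain) on the others. The others were C1s1, Gimap4, Tcf21, Cd1d1, Acp5 and Dpep1.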

How the data were processed

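Signals of 16 mouse tissue arrays were used, all of them from 1 table of the whole series. The deposited values were signal intensities on a linear scale, computed by the authors with MAS5 per the submitters' processing notes (version not given in the sources used here). Trimming 2% of probe sets at each end gave a mean signal of 2501 on each array, so the deposited intensity values were already scaled to a common level. Of 22690 probe sets, 64 controls were left out, and gene symbols came from the platform annotation, in which 20393 probe sets had 1 symbol, 691 had several and 1606 were unlisted and stay unnamed.

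A pseudocount of 125 (5% of the trimmed mean) was added and log2 taken. Probe sets with a mean under 500 (20%) over all 16 arrays, those labelled liver included, were left out. With limma 3.58.1 in R 4.3.3, label plus protocol was fitted (7 residual degrees of freedom) with empirical Bayes moderation. Benjamini-Hochberg adjustment ran over the 15180 probe sets tested. The fit was tested on simulated data. Alternatives changed the pseudocount, the filter, the normalization, the model, the probe set rule and the arrays. The number of arrays limits the precision.

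Members and gene lists were chosen with earlier results of these data known. Named genes are Snap25, Mbp and Mobp, the list members with the largest called changes, and the 15 largest rises and falls outside the lists among genes above or below all other arrays. Other list members are named for a known role, chosen after their values were seen.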

Additional observations from a re-analysis of the deposited data

Results flagged for a closer look

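Ttr on the 4 one-cycle arrays of universal reference RNA ran from a lowest of 6.2 through a median of 13.6 to a highest of 94.8, and the highest array lay far from the other 3 for a group of 4. Marker levels in this RNA were looked at in 8 such groups, and chance sets 1 array apart in about 1 in 20 groups. On the 4 BIIB arrays of the same RNA, Ttr ran from 86.0 to 152.6. All these values lie far below the 145940 and 191504 of the arrays labelled liver.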

How the results depend on the processing

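With 1 array per label and protocol, precision is limited and dim genes have no reliable fold. No paired analysis was possible because the labels give tissue arrays no replicate number, and protocol is already a term of the model. A model with only 2 groups, which puts differences among the 7 tissues into the error, called 970 probe sets higher and 289 lower, against 2318 and 2944, so that 77% of calls were higher, against 44.1%. It called 96 neuronal genes higher, against 105 (range over all alternatives 78 to 114), 22 glial genes higher, against 42, and 0 lower, and 1 choroid and ependymal gene higher and 1 lower, against 7 and 4. The 7 choroid genes became 4 with a pseudocount of 1%, 3 with 20%, and 4 without both arrays labelled embryo, heart or spleen. The 1 glial gene lower became 0 without both arrays labelled embryo or lung and 2 without both labelled kidney. Leaving out 1 array at a time gave 1568 to 2380 probe sets higher, 2039 to 3000 lower, 92 to 105 neuronal and 33 to 43 glial genes higher, 2 to 7 choroid genes higher (2 without the BIIB and 3 without the one-cycle array labelled liver) and 3 to 5 lower. For single labels it gave 3049 to 4738 probe sets called against embryo, against 4631 (3049 without the BIIB array labelled embryo, 3070 without the BIIB array labelled liver), 4691 to 6279 against labelled brain, 3350 to 4867 against kidney and 3173 to 4804 against lung. Of 357 called genes followed, 169 kept their call under every alternative tested and 188 lost it under at least 1, all 188 of them under the 2-group model. Avp turned to -0.13 on BIIB arrays only. Signs of uncalled genes also turned: Folr1 to 0.28 without both arrays labelled kidney, Pdgfra to 0.06 without both labelled lung, Aldh1l1 to -0.01 without both labelled heart, and Csf1r to 0.13 without both labelled brain, 0.17 without both labelled spleen and 0.29 as the median of its probe sets, while leaving out 1 array at a time gave it -0.14 to 0.00. For these turned values the cause was not tested.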
